A study of Mus musculus with 3 samples.

Results

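The Id genes Id1, Id2, Id3 and Id4 are the 4 members of a family of inhibitors of basic helix-loop-helix transcription factors, among 22367 protein-coding genes of the annotation. All peaks of RNA polymerase II (RNAP2) and of Med12 that overlap each gene or lie within 100 kb of its start were taken, which gave 19 of the 20479 RNAP2 peaks and 12 of the 10634 Med12 peaks. The family was selected on these same lists, with the wide peaks of its members known, so the presence, width and score of those peaks are given as a description. RNAP2 and Med12 were mapped by chromatin immunoprecipitation and sequencing (ChIP-seq) in cells of dissected distal forelimbs of mouse embryos at E12.5, the embryonic day in the sample labels and methods. The design text of the series gives E11.5 instead. No strain, genotype, treatment or pooling of embryos is given in the labels, but the methods name wild-type embryos for tissue taken at E12.5. The cells were fixed without sorting, so each list is a sum over all cell types of the distal forelimb. RNAP2 and Med12 were each sequenced from 1 library, and a library of input chromatin, without a peak list, was not used here. No value below therefore has a replicate error, and none is tested. The lists hold no read counts, so the depth behind a single peak is unknown, and the RNAP2 library was sequenced more deeply than the Med12 library.

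Id proteins have a helix-loop-helix domain but lack the adjoining basic region that binds DNA. They pair with E proteins, the common partners of tissue-restricted basic helix-loop-helix factors, and the pairs cannot bind the E-box. Id1, Id2 and Id3 are textbook direct targets of bone morphogenetic protein (BMP) signalling, in which receptors phosphorylate Smad1, Smad5 and Smad9, and these enter the nucleus with Smad4 and bind GC-rich letters near the target genes. In the limb bud, BMPs act in the growth, patterning and cell death of the digits and the tissue between them. Med12 is a subunit of the kinase module of Mediator, the complex that links transcription factors at enhancers with RNAP2 at promoters.

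The letters of the BMP-Smad response element were found near the start of all 4 genes. The element was searched in mm9, the build of the lists, as GGCGCC followed after 5 bases by GTCT, on both strands and with no mismatch. Within 5 kb of the 4 starts there were 7 elements, of which Id1 had 1, Id2 had 2, Id3 had 3 and Id4 had 1. All 7 read on the strand of the gene. They are shown because their positions are set beside the Med12 peaks further on; capitals mark both blocks of the element and each stretch is 29 bases long.
Id1, chr2:152565200-152565228, + strand, 3220 bp downstream of the start: gtacggaGGCGCCtggctGTCTgggcccg
Id2, chr12:25783712-25783740, - strand, 2776 bp upstream of the start: cgcgcctGGCGCCagagaGTCTgctccgg
Id2, chr12:25777902-25777930, - strand, 3034 bp downstream of the start: tttgggtGGCGCCtgctaGTCTgccttgg
Id3, chr4:135696448-135696476, + strand, 2957 bp upstream of the start: ccaccctGGCGCCaggctGTCTggggctg
Id3, chr4:135700701-135700729, + strand, 1296 bp downstream of the start: cctccctGGCGCCggccaGTCTgcggcat
Id3, chr4:135703889-135703917, + strand, 4484 bp downstream of the start: gttcgctGGCGCCcggatGTCTgagctct
Id4, chr13:48358252-48358280, + strand, 1463 bp downstream of the start: ggtcggtGGCGCCagttaGTCTgcagcga

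Of 22366 coding genes with a complete window, 124 had the element within 5 kb of the start, which is 0.554%. Among the 8953 coding genes with an RNAP2 peak at the start, the share was 0.681%. The width of the window was set after the peaks had been seen. Within 3 kb the element was present at 3 of the 4 genes, with 4 elements, against 0.447% of coding genes, and within 1 kb it was present at none of the 4, against 0.313%. The elements of the Id genes thus lay outside the core promoters, between 1296 bp and 4484 bp from the starts used here. The RefSeq start of Id3 is 325 bp further downstream, so the element at 1296 bp lies within 1 kb of that start. The spacing was also varied from 0 to 10 bases. At 5 bases there were 7 matches in the 4 genes and at 1 base there was 1 match in 1 gene. At each other spacing there were 0. Between 0.429% and 0.943% of coding genes had a match at any given spacing, so 0 in 4 genes is near these shares. The spacing of 5 bases was taken in advance from the known element, and Id1, Id2 and Id3 are textbook targets of its pathway. The matches at 5 bases therefore do not single out this spacing independently. For the same reason, the presence of the element at these genes is not independent support for a link with the pathway. These letters are a description of the reference sequence and do not show that a Smad protein was bound.

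**Figure D1:**
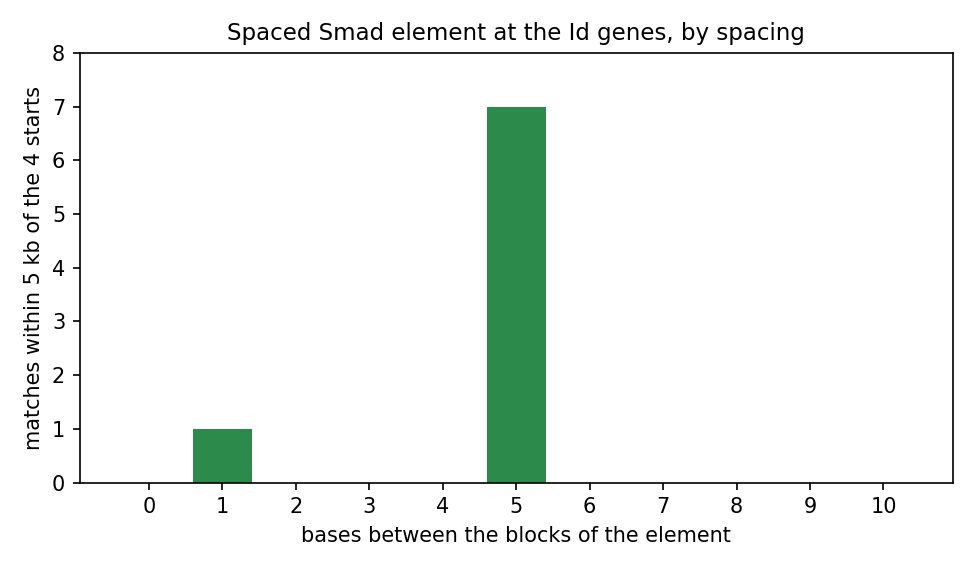
Number of matches to GGCGCC followed by GTCT within 5 kb of the starts of Id1, Id2, Id3 and Id4 (vertical axis), on both strands, by the number of bases between the blocks (horizontal axis). The bar at 5 bases, the spacing taken in advance from the known element, holds 7 matches. The bar at 1 base holds 1 and the other spacings hold 0.

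Id1 has a further GGCGCC, without GTCT at this spacing, 1099 bp upstream of the start, followed 1060 bp upstream of the start by TGACGTCA, the letters bound by cyclic AMP response factors. The Id1 promoter is known for a BMP-responsive upstream region with such GC-rich letters. The stretch was chosen after its position was seen, and capitals mark both motifs in its 106 bases.
Id1 upstream stretch, chr2:152560838-152560943, + strand: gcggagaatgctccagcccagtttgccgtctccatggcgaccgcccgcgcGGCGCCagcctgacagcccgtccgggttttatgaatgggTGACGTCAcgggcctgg

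The promoters of Id1 and Id2, from 250 bases before to 49 after the first base of the gene, are printed. Id1 has an exact TATA box TATAAA, and Id2 has no exact TATAAA but several CCAAT boxes. Capitals mark the TATA box TATAAA, the CCAAT box (bound by NF-Y), the GC box GGGCGG and the Smad letters GGCGCC, and a match on the other strand appears as its reverse complement.
Id1 promoter, chr2:152561737-152562036, + strand: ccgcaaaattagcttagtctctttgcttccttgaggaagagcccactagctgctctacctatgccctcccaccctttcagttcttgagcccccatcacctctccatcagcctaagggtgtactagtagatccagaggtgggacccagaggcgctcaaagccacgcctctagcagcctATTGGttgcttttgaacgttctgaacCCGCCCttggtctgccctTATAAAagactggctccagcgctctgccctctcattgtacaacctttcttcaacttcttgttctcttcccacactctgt
Id2 promoter, chr12:25780908-25781207, - strand: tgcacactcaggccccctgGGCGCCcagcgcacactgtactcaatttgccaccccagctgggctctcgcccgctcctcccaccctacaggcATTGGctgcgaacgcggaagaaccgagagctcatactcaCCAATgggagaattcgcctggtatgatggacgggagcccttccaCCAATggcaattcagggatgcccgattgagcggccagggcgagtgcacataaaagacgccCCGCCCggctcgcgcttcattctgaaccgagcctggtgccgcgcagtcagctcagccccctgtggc

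Id1 had TATAAA beginning 29 bp upstream of the start, a reverse CCAAT at 73 bp and a reverse GGGCGG at 47 bp. Id2 had no exact TATAAA in this stretch. Only exact matches were searched, so the near match cataaa in the Id2 promoter is not marked. Id2 had 3 CCAAT, at 159 bp, 120 bp and 76 bp, a GGGCGG at 16 bp and a GGCGCC at 231 bp. Of all coding promoters of the same length, 13.4% held TATAAA, 37.9% CCAAT, 43.4% GGGCGG and 14.3% GGCGCC. Id3 had 2 CCAAT and 1 GGCGCC, and Id4 had 1 GGGCGG and none of the others. Of the 4 genes, Id2, Id3 and Id4 were matched in the RefSeq table and Id1 was not, so the start of Id1 was not compared. The RefSeq start of Id2 was the same base as that used here, whereas that of Id3 was 325 bp downstream and that of Id4 was 311 bp upstream, so the promoter letters of Id3 and Id4 depend on which start is taken. Id4 also stood out in composition. In the 1 kb around the start its GC content was 67.9%, a value reached by 7.67% of coding genes, and its ratio of observed to expected CpG was 1.06, reached by 0.505%. Id1, Id2 and Id3 had 55.1%, 59.4% and 51.8% GC beside a median of 54.8% over all coding genes.

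Turning to the peaks, an RNAP2 peak covered the start and the whole of each Id gene. A peak counts as being at a start when it lies within 1 kb of it. Of all coding genes, 40% had an RNAP2 peak at the start, and 0.925% lay whole within 1 RNAP2 peak. As the Id genes are short, from 1160 bp to 2610 bp, the fitting background for the latter is that of coding genes of at most 5 kb, of which 3.34% lay whole within 1 RNAP2 peak.

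Id1 lies at chr2:152561987-152563146 on the plus strand. Its RNAP2 peak ran from 152559790 to 152566291, which is 6502 bp, and so began 2197 bp upstream of the start and ended 3145 bp beyond the end of the gene. The peak was 5.61 times as long as the gene, the highest such ratio of the 4. Id2 lies at chr12:25778666-25780957 on the minus strand. Its RNAP2 peak ran from 25776879 to 25786681, a width of 9803 bp, with 5724 bp upstream of the start and 1787 bp beyond the end. Most of this excess was therefore on the upstream side, unlike at Id1.

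Id3 lies at chr4:135699412-135701670 on the plus strand. Its RNAP2 peak, from 135695304 to 135704960, was 9657 bp wide, with 4108 bp upstream of the start and 3290 bp beyond the end. Id4 lies at chr13:48356796-48359405 on the plus strand. Its RNAP2 peak, from 48355517 to 48360864, was the narrowest of the 4 with 5348 bp, of which 1279 bp lay upstream and 1459 bp beyond the end. This peak also overlapped A330033J07Rik, a long noncoding RNA gene with a start within 1 kb of the peak. The RNAP2 signal of the peak therefore cannot be assigned to Id4 alone.

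**Figure D2:**
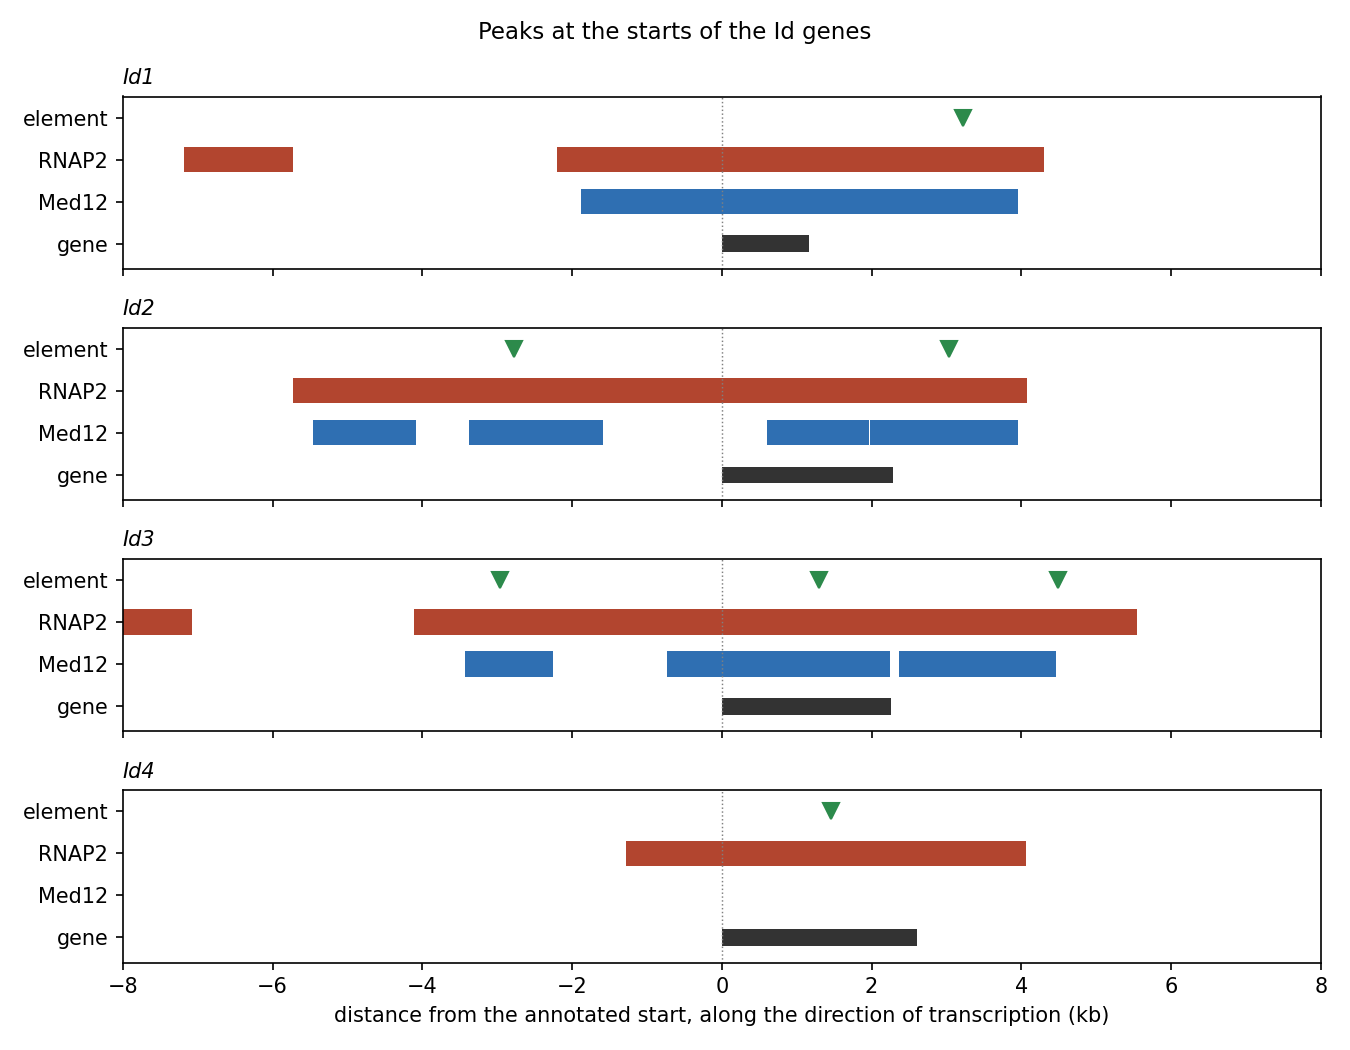
Peaks around the starts of Id1, Id2, Id3 and Id4, with distance from the start in kb along the direction of transcription on the horizontal axis. Red bars are RNAP2 peaks, blue bars Med12 peaks, black bars the genes and green triangles the 7 spaced elements; Med12 is 1 block at Id1, 4 peaks at Id2, 3 at Id3 and has no called peak at Id4.

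The median RNAP2 peak at a coding start was 1490 bp wide. A peak at least as wide as that of Id4 was found at 106 of 8953 such starts, or 1.18%. In the order of widths Id2 was at rank 18, Id3 at 19, Id1 at 70 and Id4 at 106. Id2 and Id3, neighbours in this order, had nearly the same width, and without replicates no order among the 4 has an error. Scores could not rank the genes, since all 4 peaks had the score 3100, at which 311 RNAP2 peaks of the list are tied and above which there are 18. Of RNAP2 peaks at coding starts, 3.72% scored 3100 or higher.

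**Figure D3:**
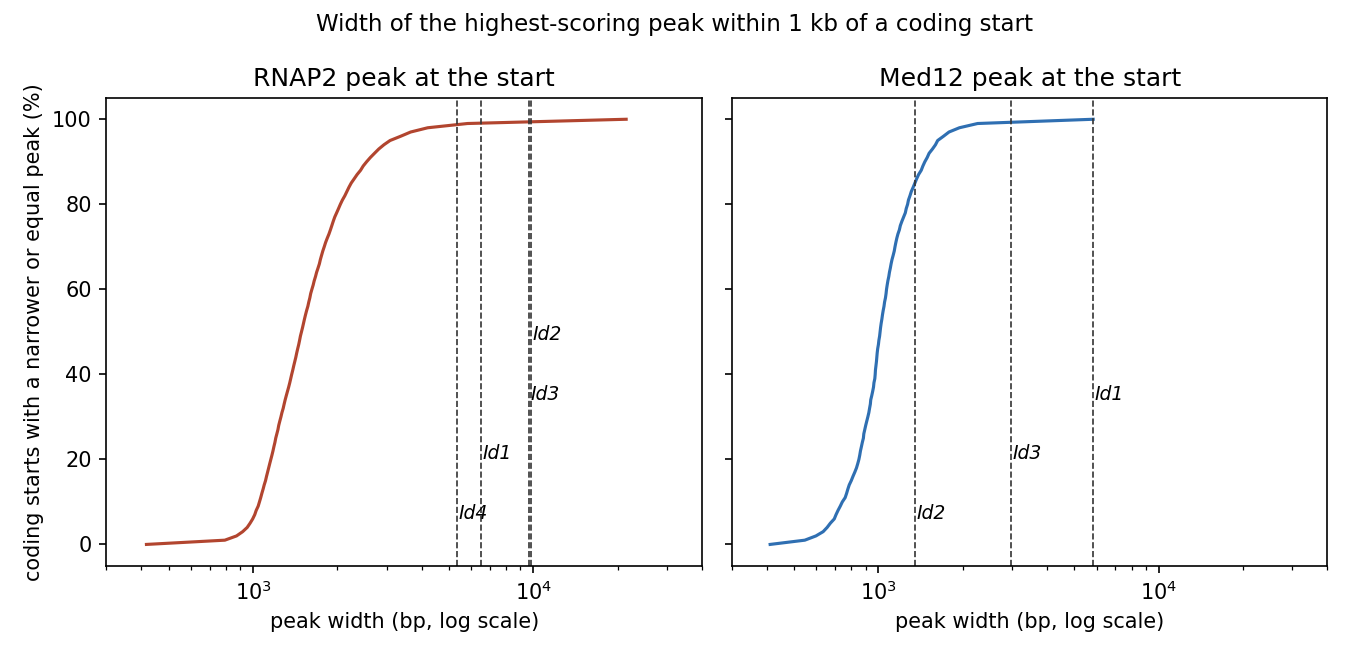
Share of coding starts with a peak as narrow or narrower (vertical axis, %) by width of the highest-scoring peak within 1 kb of the start (horizontal axis, bp, log scale), for RNAP2 (left) and Med12 (right). Dashed lines mark the Id genes, whose RNAP2 peaks are 5348 bp to 9803 bp wide; Id4 has no line on the right because it has no Med12 peak at the start.

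Med12 differed among the 4 genes in presence and in layout. It was at the start of Id1, Id2 and Id3 but not of Id4, whereas 8.2% of coding genes had a Med12 peak at the start and 7.58% had both. Of the 106 coding starts with an RNAP2 peak as wide as these, 71.7% had a Med12 peak within that RNAP2 peak, so Med12 at 3 of 4 is near the share of the wide class as a whole.

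At Id1, Med12 formed a single block. The peak ran from 152560105 to 152565941, began 1882 bp upstream of the start, and with its 5837 bp filled 89.8% of the RNAP2 peak. Its score was 1759.08, where the score is minus 10 times the log10 of the p-value given by the peak caller. It was the widest Med12 peak of the 1835 at coding starts, at rank 2 by score, and at rank 3 by either measure in the entire Med12 list. Medians of Med12 peaks at coding starts were 1014 bp and a score of 67.52. A single Med12 peak held the whole gene at 0.13% of coding genes, Id1 among them. Id1 is 1160 bp long beside a median of 15427 bp over coding genes. The share among coding genes of at most 5 kb was not counted for Med12.

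At Id2, Med12 was split into 4 peaks within the RNAP2 peak. On the upstream side, peaks of 1376 bp and 1783 bp had scores of 84.14 and 201.6. Over the gene and beyond its end, peaks of 1355 bp and 1983 bp had scores of 145.25 and 208.51. These latter peaks were only 11 bp apart. The start itself lay in a gap of 2194 bp between the upstream and the downstream peaks, so that no Med12 peak covered the first base of Id2, and the nearest began 607 bp downstream of it. Together the 4 peaks filled 6497 bp or 66.3% of the RNAP2 peak.

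At Id3 there were 3 Med12 peaks. The middle one, from 135698681 to 135701658, covered the start and 99.5% of the gene with 2978 bp and a score of 500.01, at rank 6 by width and 14 by score among Med12 peaks at coding starts. It was flanked by a peak of 1176 bp on the upstream side, scored 128.24, and by a peak of 2088 bp beyond the gene, with a score of 82.47. The gaps were 1523 bp and 126 bp, and the peaks filled 64.6% of the RNAP2 peak. At least 3 Med12 peaks in the RNAP2 peak of the start were found at 12 of 8953 coding genes, or 0.134%, including Id2, Id3 and, with 3, the inhibitory Smad gene Smad7. With Med12 peaks at most 500 bp apart joined, Id2 kept 3 and Id3 had 2, and the number of such genes was 7. This alternative was chosen after the lists had been seen. The 8953 starts have a median RNAP2 peak of 1490 bp, and wider peaks have more room for several Med12 peaks. The share with at least 3 among the 106 starts with wide RNAP2 peaks was not counted.

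At Id4, the RNAP2 peak held no Med12 peak. The nearest Med12 peak lay 58323 bp downstream of the start, with a width of 928 bp and a score of 44, close to the lowest score of 40 in the list. It is below 50, the score that matches the p-value threshold in the methods, and with that minimum the window of Id4 held 0 Med12 peaks. On the upstream side the nearest was 319171 bp from the RNAP2 peak. Since the Med12 library is the shallower and has no replicate, this says that no peak was called at Id4 and not that Med12 was absent.

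The spaced elements were then set beside the peaks. All 7 lay in the RNAP2 peaks of the starts and 5 lay in a Med12 peak. At Id1, the element 3220 bp downstream of the start was in the Med12 block, as was the GGCGCC upstream. At Id2, the upstream element was in the Med12 peak with the score 201.6 and the downstream element in that with the score 208.51. These are the higher-scoring pair of its 4 Med12 peaks and also the wider pair, with 1783 bp and 1983 bp. At Id3, the upstream element was in the peak with the score 128.24 and the element 1296 bp downstream of the start, in an intron, was in the peak with the score 500.01. The remaining element of Id3 lay 24 bp past the edge of the last Med12 peak. The element of Id4, in an intron, was 56846 bp from the nearest Med12 peak.

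Over the genome there were 447 such elements, of which 57 (12.8%) were in RNAP2 peaks, 15 (3.36%) in Med12 peaks and 13 (2.91%) in both. RNAP2 peaks cover 1.25% of the genome and Med12 peaks 0.423%. The Id genes thus held 5 of the 15 elements in Med12 peaks. The remaining 10 were in Med12 peaks 712 bp to 2355 bp wide with scores from 45.42 to 295.82. Within 1 kb of a coding start were 7 of the 10, and none of the Id elements by the starts used here. GC-rich letters are common at promoters and wide peaks hold more letters, and the part of either in these counts was not tested.

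Away from the starts, the 4 genes differed in their surroundings. In a window of 100 kb on each side, coding genes had a median of 2 RNAP2 peaks, 1 Med12 peak and 0 shared sites, where a shared site is an RNAP2 peak overlapped by Med12. Id1 had 9 RNAP2 and 3 Med12 peaks, Id3 had 6 and 4, Id2 had 1 and 4, and Id4 had 3 and 1. Shared sites other than the start numbered 2 at Id1, 1 at Id3 and 0 at Id2 and Id4, and 68.3% of coding genes had 0.

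**Figure D4:**
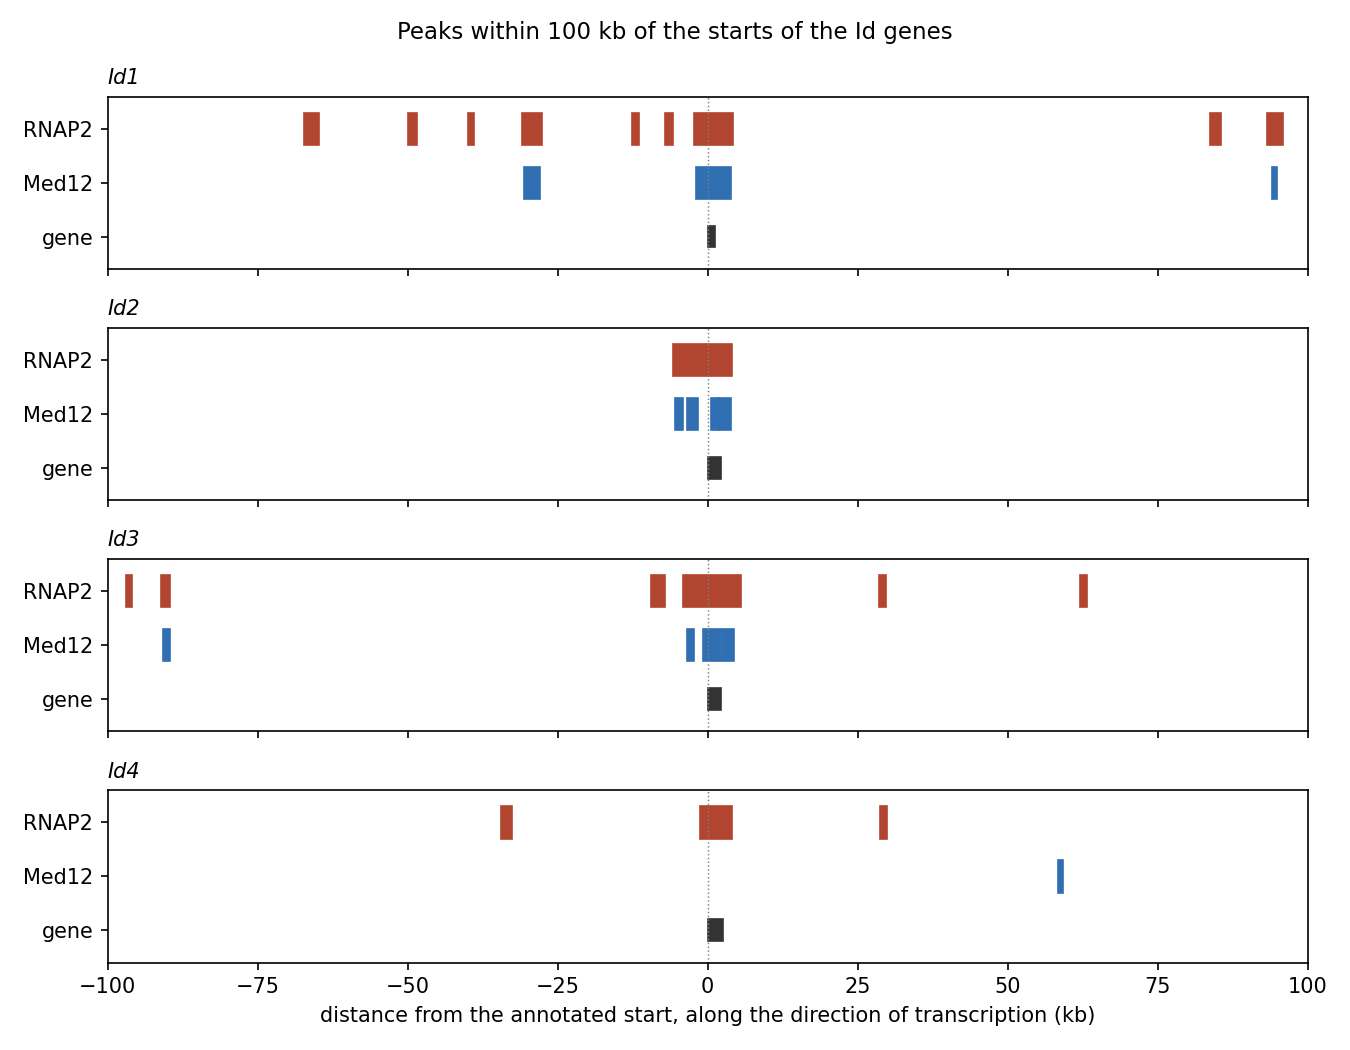
Peaks within 100 kb of the starts of Id1, Id2, Id3 and Id4, with distance from the start in kb along the direction of transcription on the horizontal axis. Red bars are RNAP2 peaks, blue bars Med12 peaks and black bars the genes, all with a thin outline so that narrow ones can be seen; Id1 has 9 RNAP2 peaks in the window and Id2 has 1.

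The strongest distal site of the family was upstream of Id1. An RNAP2 peak from 152531070 to 152534307, 3238 bp wide with a score of 2604.38, overlapped a Med12 peak of 2713 bp with a score of 417.68, at rank 123 by score and 43 by width in the Med12 list. Its nearer edge was 27680 bp upstream of the start of Id1, and it lay over the 3′ end of H13, which encodes signal peptide peptidase. It was the only distal shared site of the 4 windows away from all other annotated starts. Whether it acts on Id1, on H13 or on neither cannot be read from peak positions.

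Closer to Id1, RNAP2 alone had an intergenic peak of 1461 bp, with a score of 219.35, ending 5723 bp upstream of the start, and a weaker one of 1085 bp, with a score of 50.53, ending 11516 bp upstream. A further RNAP2 peak of 1897 bp was in an intron of Bcl2l1, with a score of 187.92. The other 4 distal RNAP2 peaks were at starts of other genes. Those at H13 and Bcl2l1, an inhibitor of apoptosis, had scores of 1648.93 and 1749.26. Those at Mcts2 and at the noncoding RNA gene Gm17559 had scores of 113.96 and 51.38. The Bcl2l1 start also had a Med12 peak of 900 bp with a score of 48.18.

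Id2 stood alone in its window. No other RNAP2 or Med12 peak was called within 100 kb, and from the edges of its RNAP2 peak the next RNAP2 peak was 273862 bp away on the upstream side and 178347 bp on the downstream side. The next Med12 peak was 431526 bp upstream and 4396837 bp downstream. All Med12 near Id2 was thus in the 9803 bp of its start peak.

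Id3 had an intergenic RNAP2 peak of 2370 bp, from 135689961 to 135692330, with a score of 1654.63, which ended 7082 bp upstream of the start and was separated from the start peak by 2974 bp. No Med12 peak overlapped it. The distal shared site of Id3 was the start of Rpl11, a ribosomal protein gene, where the RNAP2 peak had a score of 2425.02 and the Med12 peak a score of 73.54. RNAP2 alone was at the starts of E2f2, a cell cycle transcription factor, and Asap3, with scores of 119.32 and 79.14, and a peak in an intron of Rpl11 scored 43.7.

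Id4 had an RNAP2 peak of 1808 bp, with a score of 1119.62, ending 32597 bp upstream of the start in an intron of A330033J07Rik, and an intergenic one of 1038 bp with a score of 45.94, beginning 28789 bp downstream. Neither was overlapped by Med12. In all, 15 RNAP2 peaks of the windows were distal, of which 0 held the spaced element and 8 held GGCGCC. Of all 20479 RNAP2 peaks, 0.254% held the element and 30.5% held GGCGCC, so 0 of 15 is near this background. Among the 12453 RNAP2 peaks more than 1 kb from any coding start, 0.0883% held the element and 11.9% held GGCGCC, while the 15 include peaks at the starts of other genes.

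The genes of the same pathway were counted at their starts from a list of 38. The list was chosen with earlier results of these data known, so the counts are a description. Of the 38 genes, 26 had RNAP2, 9 had Med12, 9 had both, and 5 had an RNAP2 peak as wide as the narrowest Id peak. Over all coding genes the shares were 40%, 8.2%, 7.58% and, among starts with RNAP2, 1.18%. All 5 with such a wide peak were among the 9 genes of feedback and known BMP-Smad targets. This rests on the cut, which is the 5348 bp of the Id4 peak. Bambi lay just above it with 5396 bp. Hand2, listed as a tissue-restricted basic helix-loop-helix factor, lay just below it with 5331 bp. Smad6 and Smad7, the inhibitory Smads, had RNAP2 peaks of 7137 bp and 14772 bp and Med12 at the start with scores of 312.46 and 153.11. The pseudoreceptor gene Bambi and the homeobox genes Msx1 and Msx2 had RNAP2 peaks of 5396 bp, 13214 bp and 12323 bp and no Med12 peak within 1 kb of the start. The RNAP2 peak of Msx2 held 2 Med12 peaks further from the start, whereas those of Bambi, Msx1 and Id4 held 0. Of the others, Atoh8 had both, Nog and Hey1 had RNAP2 alone and Grem1, a secreted BMP antagonist, had neither.

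Of 12 BMP ligands, receptors and Smads, 10 had RNAP2 at the start and 2 had Med12, Bmpr1b with a score of 83 and Smad5 with 89.69, and 0 had a peak of the width of the Id genes. The 3 E protein genes, whose products Id proteins bind, all had RNAP2, and Tcf3 and Tcf4 had Med12 too, while Tcf12 did not. Among 14 tissue-restricted basic helix-loop-helix factors, 5 had RNAP2 and 2 had both. These were Hand2, with an RNAP2 peak of 5331 bp and a Med12 score of 272.24, and Twist1, with 4430 bp and 88.26, both regulators of limb bud mesenchyme. The muscle factors Myod1, Myf5 and Myog had neither. The spaced element was within 5 kb of the start of 3 of the 38, Grem1, Msx1 and Msx2, beside 0.554% of all coding genes. At Msx1 and Msx2 it was in an RNAP2 peak, as at the Id genes, and at Grem1 it was not. In none of the 3 was it in a Med12 peak.

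The coding genes most like each member were sought by the mean difference over 5 measures in percentile rank among all coding genes. The measures were the score and width of the RNAP2 and Med12 peaks at the start and the number of distal shared sites. For Id1, Id2 and Id3 only genes with both RNAP2 and Med12 at the start were considered, and for Id4 all coding genes. Nearest to Id1 were Tnrc18 with a mean difference of 0.0161, Hand2 with 0.0939 and Cyr61 with 0.133. For Id2 they were Actg1 and 0610009L18Rik with 0.245, which share 1 peak, and Hsph1 with 0.295. For Id3 they were Smad6 with 0.0823, Hsp90ab1 with 0.107 and Gm11175 with 0.209. For Id4, with no called Med12 peak at the start, they were Eif1 with 0.00715, and 5031425E22Rik and Mll5, again at 1 shared peak, with 0.0246. Most coding genes have no Med12 peak at the start and are tied in rank, so small rank differences can hide wide gaps in the values. Med12 scores of Tnrc18, Hand2 and Cyr61 were 2221.8, 272.24 and 219.39, beside 1759.08 at Id1. RNAP2 widths of Smad6, Hsp90ab1 and Gm11175 were 7137 bp, 9105 bp and 4183 bp, beside 9657 bp at Id3. The likeness covers these 5 measures and nothing else.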

How the data were processed

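RNAP2 (Abcam ab5131) and Med12 (Bethyl A300-774A) ChIP-seq was made from distal forelimb cells at E12.5. After removal of base 1 from each read, the authors aligned to mm9 using Bowtie, discarded redundant alignments and ran the MACS peak caller on each library, version 1.4.1 per the submitters' processing notes. Whether the input was the control is not given in the sources used here. The deposited value of each peak is a score, minus 10 times the log10 of the p-value. The p-value threshold in the methods matches a score of 50, but both deposited lists reach down to 40, and all their peaks were used. Scores depend on depth and width, so they were ranked within a list and not compared between the lists.

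Starts were converted from 0-based to 1-based, and overlaps of at least 1 bp were found in Python 3.11.15 (numpy 2.4.6, scipy 1.17.1). They were checked against bedtools 2.31.1 (4435 RNAP2 peaks with Med12 by both) and tested on simulated data with known overlaps. Genes and starts are those of GENCODE vM1, with 1 start for each gene, and letters were read from mm9 with pysam 0.24.0. Figures were drawn with matplotlib 3.10.9. The members, the gene lists and the motifs were chosen with earlier results of these data known. Named genes are the 4 members, those of the pathway list, those with a start within 1 kb of a peak in a member window, and for each member the 3 most like it. There is 1 library for each antibody, so no test was made. Alternatives were other scores, overlaps, start distances and windows.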

Additional observations from a re-analysis of the deposited data

How the results depend on the processing

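Of 195 counts and shares recomputed under 15 alternatives, 157 stayed within 1.5 times the reported count or within the 95% Wilson interval of the reported share. The number of Id genes with RNAP2 at the start was 4 under every alternative tried for it, and that with Med12 and with both was 3 except with a peak required to cover the first base, where it was 2 because Id2 dropped out. With a score of at least 100, the 12 Med12 peaks became 7 and the 3 distal shared sites 1, and the shares of coding genes with RNAP2, Med12 and both at the start were 33.9%, 2.03% and 1.92%. With a score of at least 50 these shares were 38.7%, 6.14% and 5.78%, with the start base covered 37.9%, 6.53% and 6.16%, within 5 kb 43.3%, 10.9% and 9.66%, and on the chromosomes of the 4 genes alone 42%, 8.97% and 8.45%. Windows of 50 kb held 1 distal shared site and windows of 200 kb held 31 RNAP2 peaks. Joining Med12 peaks at most 500 bp apart, chosen after seeing the data, left 7 coding genes with 3 or more. With the spaced element sought within 1 kb, or with 4 or 6 bases between its blocks, also chosen after seeing the data, the number of Id genes with it was 0. No paired analysis was possible because there are no replicates, so no library could be left out either. Absence of a Med12 peak cannot be told apart from the lower depth of that library.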
